A study of Homo sapiens with 4 samples.

Results

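The genes of the peroxiredoxins, the superoxide dismutases, catalase and thioredoxin were examined in Nalm-6 cells that differ in Arp5 and Arp8. The 10 genes were chosen by name, *PRDX1* to *PRDX6*, *SOD1*, *SOD2*, *CAT* and *TXN*, and every array probe whose accession is a transcript of one of them was used. All 10 were measured, among 13845 genes that could be named and had a probe well above background on at least 1 array. Nalm-6 is a human pre-B leukemia cell line, and the cells were not under hemin-induced oxidative stress. Wild-type cells were the reference. In Arp5 KO cells both *ARP5* alleles had been disrupted by homologous recombination. In Arp8 KO cells the *ARP8* locus had been disrupted in a similar way. The paper recalls an earlier report that conditional KO of Arp8 was lethal to cells, whereas its Arp5 KO cells lived and grew more slowly. Whether the Arp8 KO array is of conditional knockout cells was not examined here. A further array is labelled Arp8 overexpression, and per the design text this was obtained in Arp8 knockout cells with a tetracycline-regulated (Tet-Off) system. Whether the Arp8 KO array and this array come from 1 clone is not given in the sources used here, and Arp5 KO cells are 1 established line. Each genotype has 1 single-color Agilent array, so no difference between genotypes has a replicate check and none was tested.

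Cells that respire produce superoxide, which superoxide dismutases turn into hydrogen peroxide. Hydrogen peroxide is broken down by catalase and by the peroxiredoxins, thiol peroxidases of the cytosol, the mitochondria, the endoplasmic reticulum and the peroxisomes. Most oxidized peroxiredoxins are reduced again by thioredoxin, which takes its electrons from NADPH through thioredoxin reductase and also serves ribonucleotide reductase in the making of DNA precursors.

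The labels were examined first. *ACTR5*, the gene of Arp5, fell from 1909 units in the wild type to 65.3 units with Arp5 KO. *ACTR8*, the gene of Arp8, has a pair of probes. On the array labelled Arp8 overexpression they read 679 and 1857 units, with Arp8 KO 785 and 1654, and in the wild type 1092 and 2149. Over wild-type cells their log2 ratios were -0.49 and -0.40 for Arp8 KO, and -0.71 and -0.23 for the labelled array. Neither probe was thus raised where the label gives overexpression, and for this reason that array is called by its label throughout. With Arp8 KO much of the *ACTR8* signal remained, unlike that of *ACTR5* with Arp5 KO, so these probes do not show the knockout of Arp8 and the name Arp8 KO is likewise that of the label. *INO80*, the ATPase of the complex that holds both proteins, set the KO arrays apart from the labelled one, with log2 ratios to wild-type cells on its brightest probe of 0.82 for Arp5 KO, 1.01 for Arp8 KO and 0.20 for the labelled array, and 0.94, 1.08 and 0.34 on its other probe. Which part of the disrupted or introduced gene these probes read was not examined. Among markers of pre-B cells, *CD79A*, *VPREB1* and *IGLL1* were well above background on all 4 arrays. Their levels were not constant, with log2 ratios to wild-type cells of -0.56 for *CD79A* in Arp5 KO cells and -0.61 for *VPREB1* in Arp8 KO cells. The brightest *IGLL1* probe gave 0.03, -0.06 and -0.02, and another *IGLL1* probe -0.34, -0.51 and -0.84. Of the T cell markers *CD3D* and *CD3G* were not well above background on the arrays, and *CD3E* and *CD2* were, at no more than 47.7 units. Of the myeloid markers *MPO* was not, and *CD14*, *LYZ*, *CSF1R* and *ITGAM* were, with *LYZ* rising from 55.4 units in the wild type to 143 with Arp8 KO and to 140 on the array labelled Arp8 overexpression. Of the epithelial markers *EPCAM* was not, and *KRT8* and *KRT18* were. The brightest *KRT8* probe had 850 to 1045 units, and the other *KRT8* probe was not well above background on any array.

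The 10 genes have 13 probes on 22 spots, and every probe was well above background on all 4 arrays, with signals from 6323 to 213872 units. *SOD1*, *PRDX5* and *TXN* have 2 probes each. A gene was read by its brightest probe, and the log2 ratio between 2 arrays was taken after each array had been scaled to its 75th percentile. The scanner software gives an error of 0.20 on the log2 scale for the ratio of 2 single spots of these probes. Repeated spots lay closer together, with a median SD of the log2 ratio between 0.027 and 0.033 in the 4 comparisons for the brightest class of repeated probes. Neither error holds the variation between cultures.

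Among the 10 genes, *TXN* was the one that moved beyond 2-fold, and it was lower on the Arp8 KO array and the array labelled Arp8 overexpression alike. In Arp5 KO over wild-type cells 0 of the 10 genes were beyond 2-fold, against 2.55% of all 13706 genes compared and 0.506% of the 8896 genes of at least 500 units on both arrays. In Arp8 KO over wild-type cells 1 of the 10 genes was beyond 2-fold, against 3.73% of all genes and 1.1% of the genes of at least 500 units. The array labelled Arp8 overexpression over wild-type cells also had 1 of the 10 beyond 2-fold, against 3.79% and 1.05%. The 3 comparisons share the wild-type array, so their values are given side by side. In Arp8 KO over the array labelled Arp8 overexpression 0 of the 10 were beyond 2-fold, against 1.82% and 0.75%. A threshold of 1.5-fold added no gene. In Arp5 KO over wild-type cells 0 genes were higher and 0 lower beyond 1.5-fold, where 4.6% of all genes were higher and 4.2% lower. For Arp8 KO over wild-type cells 0 were higher and 1 lower, where 5.87% of all genes were higher and 5.75% lower. On the array labelled Arp8 overexpression over wild-type cells 0 were higher and 1 lower, where 6% of all genes were higher and 5.73% lower. For Arp8 KO over the array labelled Arp8 overexpression both counts were 0, where 3.36% of all genes were higher and 4.01% lower. With 10 genes, counts of 0 or 1 lie near these shares.

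The median log2 ratio of the 10 genes was 0.07 in Arp5 KO over wild-type cells, -0.02 in Arp8 KO over wild-type cells, while it was 0.13 on the array labelled Arp8 overexpression over wild-type cells. Over all genes the same medians were 0.03, 0.04 and 0.04. The median of the 10 genes therefore lay close to that of all genes in each comparison. Single genes ranged from -0.47 to 0.36 for Arp5 KO and from -1.06 to 0.10 for Arp8 KO. On the array labelled Arp8 overexpression they ranged from -1.02 to 0.23. A median over genes that go both ways does not describe the list as a group. In Arp8 KO over the array labelled Arp8 overexpression all 10 genes had log2 ratios below 0, with a median of -0.12 and values from -0.30 to -0.01, against a median of 0.00 over all genes. These ratios are small, 8 of the 10 genes lay within the software error of 0, and that of *PRDX4* changes sign with the scaling. In the comparisons with wild-type cells the sign of *PRDX1* in Arp5 KO cells and the signs of *CAT*, *PRDX6* and *SOD2* in Arp8 KO cells also changed in some alternatives, so no direction is drawn for them there.

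**Figure D1:**
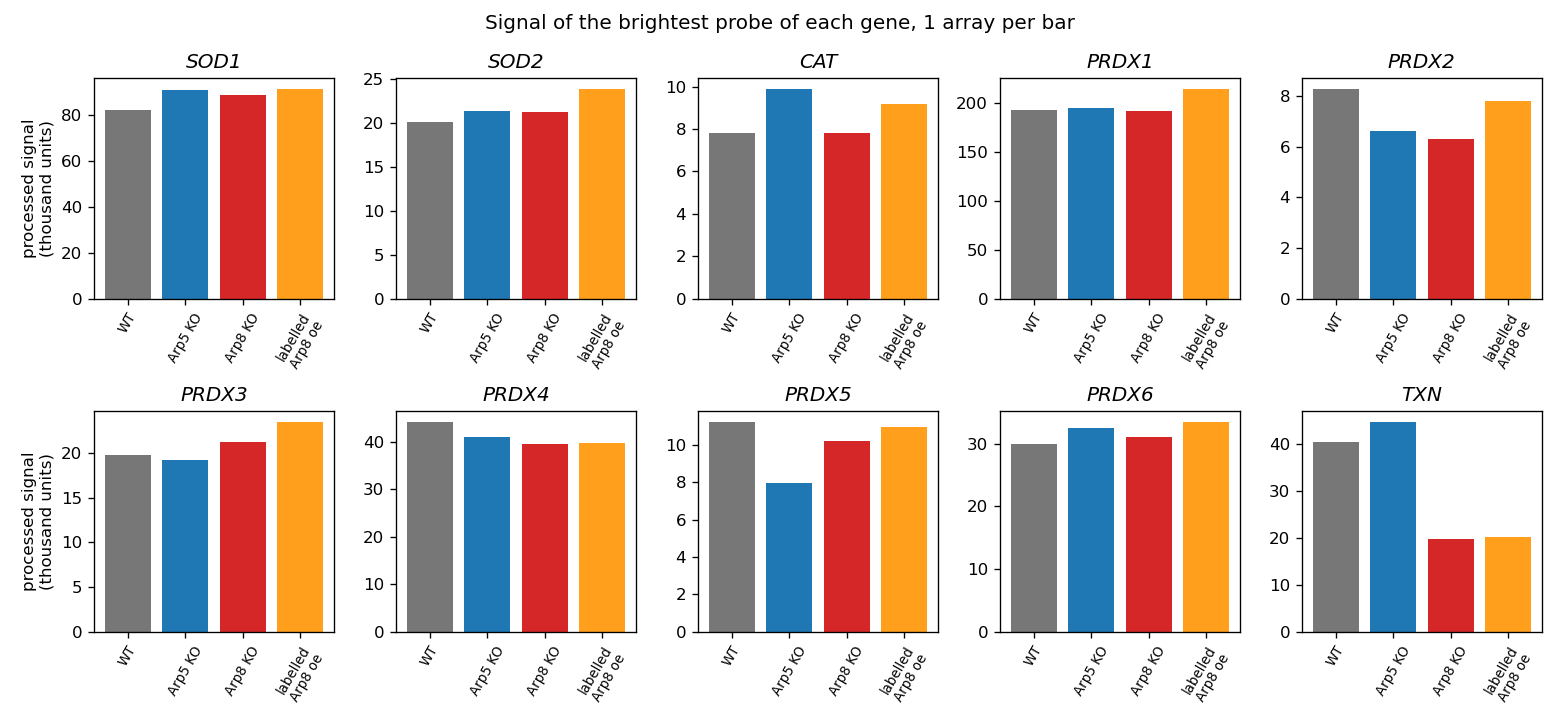
Processed signal in 1000 units of the brightest probe of each gene, with 1 bar for each of the 4 arrays and an axis of its own for each gene. *TXN* stands out, at 40465 and 44747 units in wild-type and Arp5 KO cells against 19691 with Arp8 KO and 20208 on the array labelled Arp8 overexpression.

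*SOD1* encodes the copper- and zinc-containing superoxide dismutase, found mainly in the cytosol. Its brightest probe read 82185 units in the wild type, 91181 with Arp5 KO, 88993 with Arp8 KO, and 91607 on the array labelled Arp8 overexpression. After scaling, the log2 ratios against the wild type were 0.17, 0.10 and 0.13 in this order, all within the software error. The other *SOD1* probe is printed 10 times on the array, which gives the closest look at the error between spots among these genes. Its log2 ratios were 0.20 with Arp5 KO, 0.10 with Arp8 KO, and 0.16 on the array labelled Arp8 overexpression, and the SDs of these ratios over the 10 spots were 0.015, 0.023 and 0.036. After scaling both probes placed wild-type cells lowest and Arp5 KO cells highest. Before scaling the array labelled Arp8 overexpression was slightly above Arp5 KO cells on both, with 59877 against 59587 units on the other probe. The spots of an array share its labelling and its scaling, so these SDs do not hold the error of either. Under the alternatives the *SOD1* ratios ranged from 0.10 to 0.19 for Arp5 KO and from 0.03 to 0.11 for Arp8 KO. On the array labelled Arp8 overexpression they ranged from 0.07 to 0.17. The difference between cultures of the same genotype was not measured.

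*SOD2* encodes the manganese superoxide dismutase of the mitochondrial matrix. It read 20173 units in the wild type, 21315 with Arp5 KO, 21270 with Arp8 KO, and 23886 on the array labelled Arp8 overexpression. Against the wild type the log2 ratios were 0.10, 0.06 and 0.22. Wild-type and both KO cells did not differ beyond the software error, and the array labelled Arp8 overexpression differed from wild-type cells by little more than it. In 4 of the alternatives that difference of *SOD2* lay within the error.

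*CAT* encodes catalase, the heme enzyme of peroxisomes that splits hydrogen peroxide into water and oxygen. Its probe read 7818 units in the wild type, 9890 with Arp5 KO, 7832 with Arp8 KO, and 9187 on the array labelled Arp8 overexpression. Arp5 KO cells and the last of these arrays were the higher ones, and wild-type and Arp8 KO cells the lower ones. Against the wild type the log2 ratios were 0.36 with Arp5 KO, -0.01 with Arp8 KO, and 0.21 on the array labelled Arp8 overexpression. In 3 of the alternatives the last of these lay within the software error. That of *CAT* in Arp5 KO cells was the highest among the 10 genes in the comparisons with wild-type cells, and 14.6% of the 8896 genes of at least 500 units were as far from 0 in that comparison.

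*PRDX1*, *PRDX2* and *PRDX6* encode peroxiredoxins of the cytosol. *PRDX1*, a typical 2-Cys enzyme that is recycled by thioredoxin, had 191983 units in the wild type, 194119 with Arp5 KO, 191449 with Arp8 KO, and 213872 on the array labelled Arp8 overexpression. Its log2 ratios against the wild type were 0.04, -0.02 and 0.13. None of the 6 pairs of arrays differed beyond the software error, and its levels spanned 0.15 on the log2 scale. *PRDX6*, the 1-Cys enzyme that uses glutathione in place of thioredoxin, read 30013, 32540, 31152 and 33486 units in the same order, with log2 ratios of 0.14, 0.04 and 0.14. It spanned the least of the 10 genes, 0.14. *PRDX2*, the other typical 2-Cys enzyme of the cytosol and abundant in red blood cells, was lower in both KO cells. It had 8289 units in the wild type, 6640 with Arp5 KO, 6323 with Arp8 KO, and 7793 on the array labelled Arp8 overexpression. Its log2 ratios against the wild type were -0.30, -0.41 and -0.11. The ratio in Arp8 KO cells was the lowest of the 10 genes after that of *TXN*, and 7.42% of the 8906 genes of at least 500 units were at or below it. Arp8 KO cells were also lower than the array labelled Arp8 overexpression, by a log2 ratio of -0.30.

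*PRDX3*, *PRDX5* and *PRDX4* encode the peroxiredoxins of the organelles. *PRDX3* is the mitochondrial enzyme that works with the mitochondrial thioredoxin. It had 19708 units in the wild type, 19168 with Arp5 KO, 21185 with Arp8 KO, and 23456 on the array labelled Arp8 overexpression. Its log2 ratios against the wild type were -0.02, 0.09 and 0.23, and the last of these passed the software error in the main setting but not in 3 of the alternatives. *PRDX4*, the enzyme of the endoplasmic reticulum, had 44134 units in the wild type, 41019 with Arp5 KO, 39416 with Arp8 KO, and 39765 on the array labelled Arp8 overexpression. For *PRDX4* the log2 ratios were -0.08, -0.18 and -0.17, within the software error in the main setting. In some alternatives those of the Arp8 KO array and the array labelled Arp8 overexpression passed it, at up to -0.25 and -0.24. *PRDX5*, an atypical 2-Cys enzyme of mitochondria, peroxisomes and cytosol, had the widest range among the peroxiredoxins, 0.47. Its brightest probe read 11238 units in the wild type, 7964 with Arp5 KO, 10190 with Arp8 KO, and 10958 on the array labelled Arp8 overexpression. Arp5 KO cells were the low array, and the other arrays lay within 0.16 of each other. Against the wild type it gave log2 ratios of -0.47 with Arp5 KO, -0.16 with Arp8 KO, and -0.06 on the array labelled Arp8 overexpression, and the other *PRDX5* probe gave -0.49, -0.17 and -0.08. In Arp5 KO cells 3.44% of the 8896 genes of at least 500 units were at or below the *PRDX5* ratio.

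**Figure D2:**
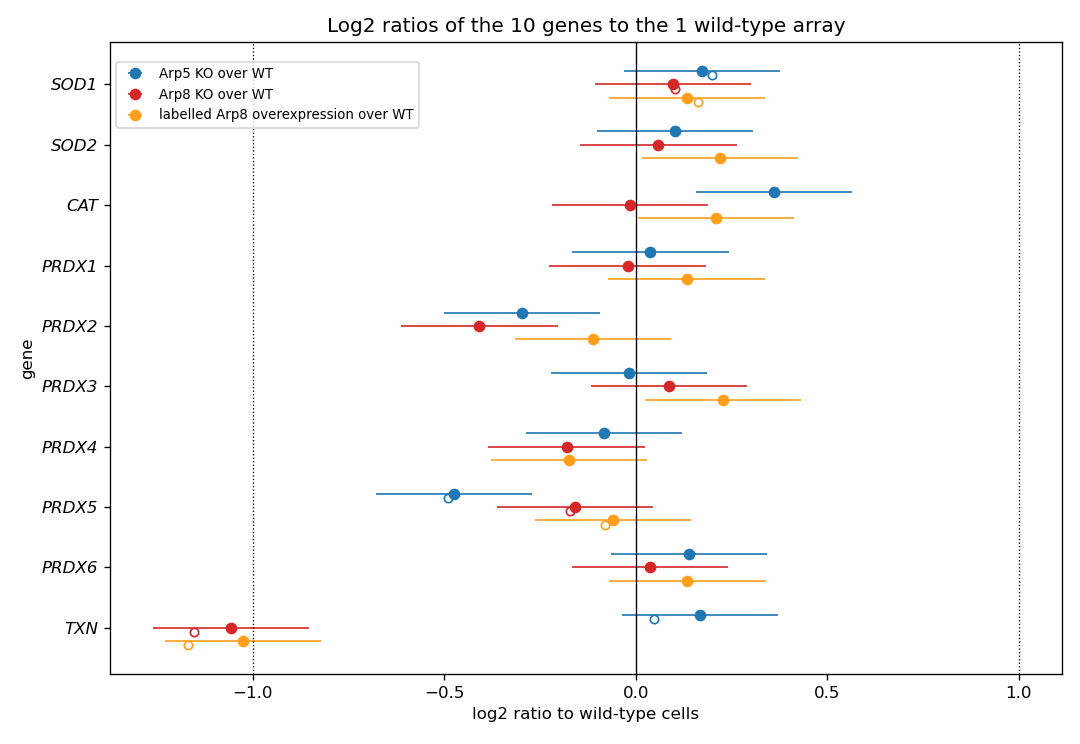
Log2 ratios to the wild-type array for the 10 genes, with filled points for the brightest probe, open points for the other probe of *SOD1*, *PRDX5* and *TXN*, and bars for the software error of 0.20. Dotted lines mark 2-fold, which *TXN* passes at -1.06 with Arp8 KO and at -1.02 on the array labelled Arp8 overexpression.

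*TXN* encodes cytosolic thioredoxin, the small dithiol protein that hands electrons to the peroxiredoxins. Its brightest probe read 40465 units in the wild type, 44747 with Arp5 KO, 19691 with Arp8 KO, and 20208 on the array labelled Arp8 overexpression. Its other probe read 33998, 34592, 15472 and 15362 units in the same order. On both probes wild-type and Arp5 KO cells were high, whereas the Arp8 KO array and the array labelled Arp8 overexpression were low. Against the wild type the log2 ratios were 0.17 with Arp5 KO, -1.06 with Arp8 KO, and -1.02 on the array labelled Arp8 overexpression for the brightest probe, and 0.05, -1.15 and -1.17 for the other one. Within the pairs the levels did not differ beyond the software error, since Arp8 KO over the array labelled Arp8 overexpression gave -0.03 and 0.02. *TXN* was thus lower to a like extent on the Arp8 KO array and on the array labelled Arp8 overexpression. These arrays cannot be read as opposite states of Arp8. Per the design text the labelled one was obtained in Arp8 knockout cells, and neither *ACTR8* probe was raised on it. Among the genes of at least 500 units, 51 of 8906 were at or below *TXN* in Arp8 KO over wild-type cells, and 57 of 8883 on the array labelled Arp8 overexpression over wild-type cells.

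The scanner reads bright spots from a scan at low gain and other spots from a scan at high gain. Both *TXN* probes were read from the low-gain scan in wild-type and Arp5 KO cells and from the high-gain scan on the remaining arrays, so the source of the reading moved with the result. The *PRDX3* probe was read from the low-gain scan only where it was highest, on the array labelled Arp8 overexpression. Repeated probes that were read from both scans on 1 array give the size of this shift. In 17 such cases, which come from 6 probes, the low-gain readings were higher by 0.03 to 0.14 on the log2 scale, with a median of 0.06. The shift runs in the direction of these ratios. Taking off a shift of the median size would bring *PRDX3* on that array within the software error and the brightest *TXN* probe just within 2-fold in both comparisons, while the other *TXN* probe would stay beyond 2-fold. The share of this shift in the ratios was not tested.

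**Figure D3:**
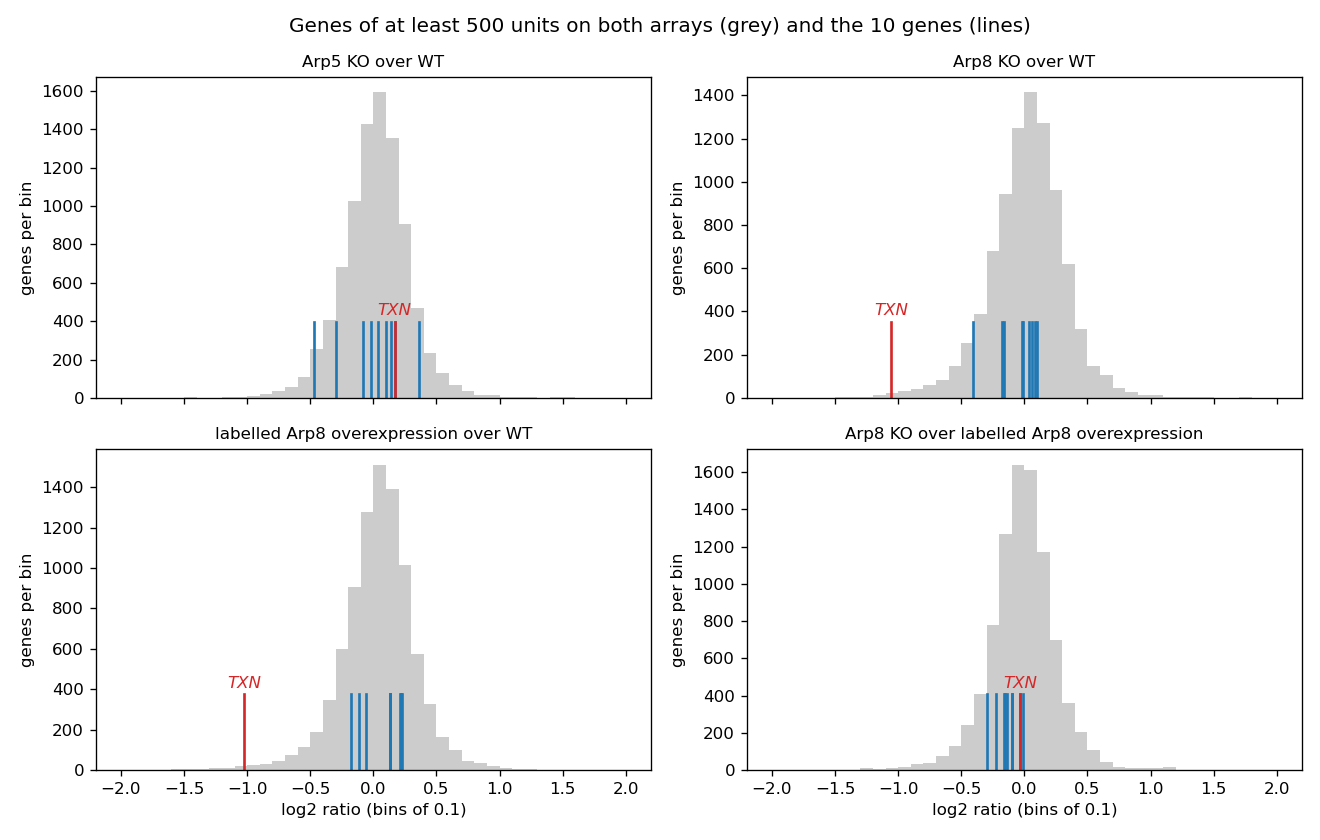
Number of genes per bin of 0.1 in log2 ratio for genes of at least 500 units on both arrays, in each of the 4 comparisons, with blue lines for the 10 genes and a red line for *TXN*. *TXN* lies at -1.06 and -1.02 where Arp8 KO or the array labelled Arp8 overexpression is set over wild-type cells, and the other 9 genes lie within the bulk.

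The genes whose profile over the 4 arrays was most like that of *TXN* were *TSTD2*, *IL7R*, *INIP*, *INVS* and *TMEM245*, at Euclidean distances of 0.074, 0.135, 0.140, 0.164 and 0.168 between centred log2 levels, among 8761 genes of at least 500 units on all 4 arrays. Of these 5 genes 4 lie on chromosome 9, as does *TXN*, while 3.93% of the genes compared do. Among the 20 nearest genes 16 lie on chromosome 9, and among the 50 nearest 33 do. The position of the genes was therefore examined, after these values had been seen.

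Genes with a mean signal of at least 500 units were put in their order along each chromosome, and the 10 on either side of each of the 10 genes were taken as its neighbours. The 20 neighbours of *TXN*, from *NIPSNAP3A* to *PRPF4*, had a median log2 ratio of -0.91 in Arp8 KO over wild-type cells and of -0.80 for the array labelled Arp8 overexpression over wild-type cells. In Arp5 KO over wild-type cells their median was -0.01, and in Arp8 KO over the array labelled Arp8 overexpression it was -0.04. *TXN* was lower than the median of its neighbours by a small part of its ratio, at a difference of -0.15 with Arp8 KO and -0.23 on the array labelled Arp8 overexpression. These neighbours include *SLC31A2* to *PRPF4*, which lie past the end of the run of lower genes described below. Without *TXN* that run, chosen for its lower genes, had medians of -0.996 and -0.94 in the same comparisons, closer to *TXN*. Neighbours ranged from -1.38 to 0.33 in Arp8 KO cells, and *TXN* lay within this range. No other gene of the 10 had neighbours that moved so. *PRDX2* in Arp8 KO over wild-type cells, at -0.41, lay below its lowest neighbour, at -0.29. For *PRDX1*, *PRDX2*, *PRDX3*, *PRDX4*, *PRDX5*, *PRDX6*, *SOD1*, *SOD2* and *CAT*, which lie on chromosomes 1, 19, 10, X, 11, 1, 21, 6 and 11, the median of the 20 neighbours in Arp8 KO over wild-type cells was between -0.07 and 0.12.

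**Figure D4:**
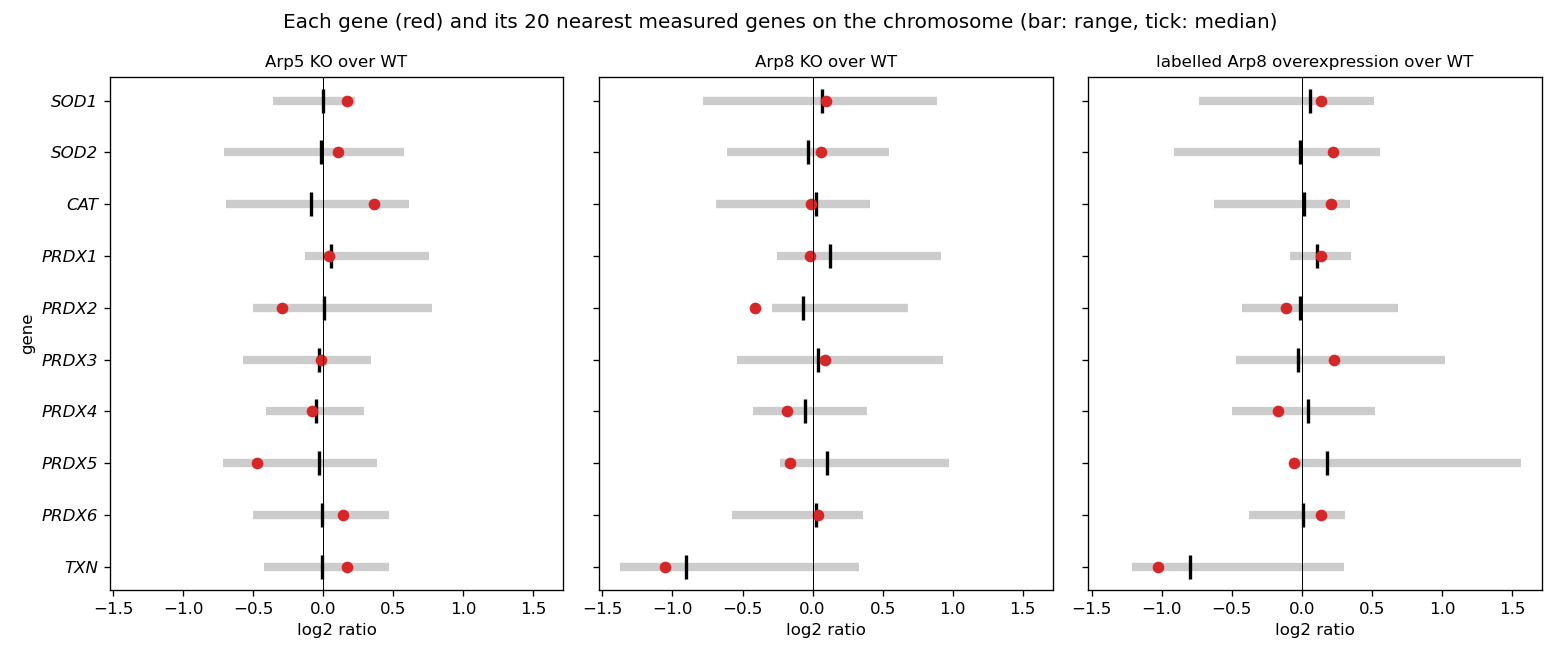
Log2 ratio to wild-type cells of each gene (red points) beside the range (grey bars) and the median (black ticks) of its 20 nearest measured genes on the same chromosome. The neighbours of *TXN* have medians of -0.91 with Arp8 KO and -0.80 on the array labelled Arp8 overexpression, and those of the other 9 genes lie near 0.

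The ends of the run of lower genes around *TXN* were set from Arp8 KO over Arp5 KO cells alone, walking outward from *TXN* until 3 genes in a row were not below -0.5 on the log2 scale. The run then held 36 genes from *TDRD7* to *INIP*, with 30 before *TXN* and 5 after it. The array labelled Arp8 overexpression and the wild-type array did not set these ends, but both had entered the profiles that led to this stretch. Their comparison is therefore no independent check and only describes the run. In the labelled array over wild-type cells, 33 of the 36 genes were below -0.5 and their median was -0.95. Of the other genes measured on all chromosomes 4.14% were below -0.5. The comparisons of each KO with wild-type cells reuse an array that set the run, so they too only describe it. They had 34 of the 36 below -0.5 with a median of -0.999 for Arp8 KO, against 4.88% of the other genes, and 0 with a median of -0.03 for Arp5 KO, against 3.31%. Past *INIP*, the gene *SLC31A2* had a log2 ratio of 0.20 in Arp8 KO over wild-type cells, and the 20 genes after the run had a median of 0.13. On the other side the end at *TDRD7* is not an edge, since the 20 genes before it had a median of -0.81 with 14 of them below -0.5. When 4 genes in a row were asked for, the run reached back to *IPPK* and held 53 genes, with a median of -0.97 in Arp8 KO and -0.96 on the array labelled Arp8 overexpression over wild-type cells, and the 20 genes before *IPPK* had medians of 0.11 and -0.07. Every window of 20 consecutive genes on the chromosomes was read in the same way, 8642 overlapping windows in all. A median below -0.5 was found in 51 of them for Arp8 KO over wild-type cells, all on chromosome 9, and in 0 for Arp5 KO over wild-type cells. For the array labelled Arp8 overexpression over wild-type cells there were 82, of which 51 were on chromosome 9 and the others on chromosome 6. The lower level of *TXN* on both Arp8 arrays was thus measured together with that of the genes beside it, and the arrays do not separate a change at *TXN* from one of this stretch of chromosome 9. DNA of these cells was not analysed here, and what sets this stretch apart was not tested.

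**Figure D5:**
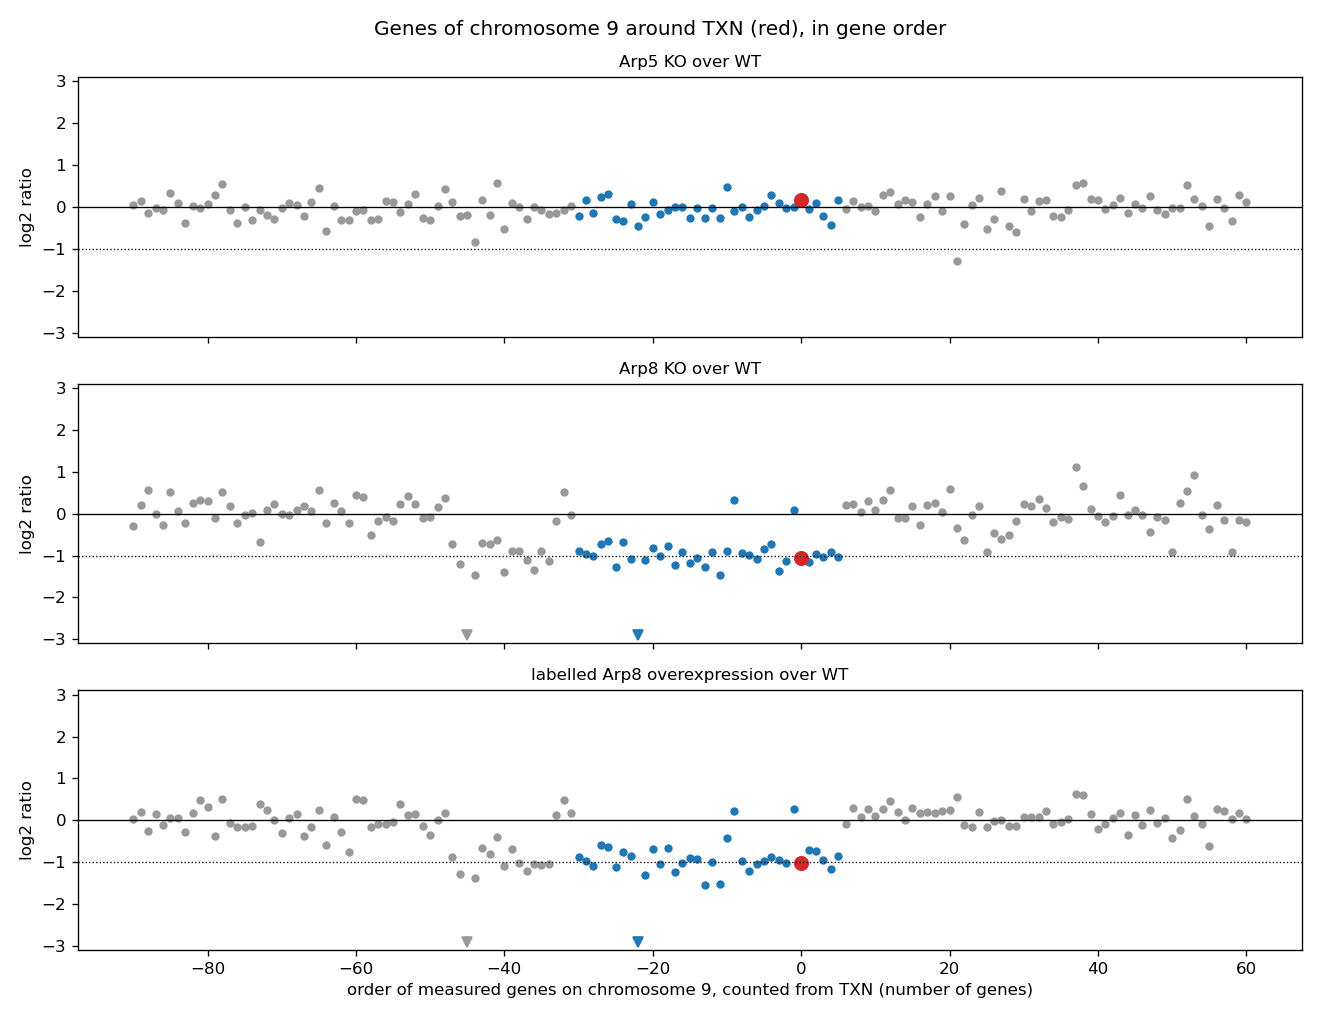
Log2 ratio to wild-type cells of genes on chromosome 9 against their order from *TXN* (red), counted in measured genes, with the 36 genes of the run from *TDRD7* to *INIP* in blue and triangles for ratios below the axis. The run lies near -1 with Arp8 KO and on the array labelled Arp8 overexpression, and near 0 in Arp5 KO cells.

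Sequences upstream of the start sites are shown for *TXN*, the gene with the widest range, and for *CAT* and *PRDX3*, as examples of a match to the searched motif before the start. RefSeq promoter windows of 300 bases, from 250 before to 50 after a start, were matched by symbol for 7 of the 10 genes in 11 windows (*PRDX2*, *PRDX3*, *PRDX4*, *PRDX5*, *SOD2*, *CAT* and *TXN*), and *PRDX1*, *PRDX6* and *SOD1* are named only. The motif was TGANNNNGC on both strands, the core shared by antioxidant response and Maf recognition elements. It occurs in 6 of the 11 windows, which belong to *PRDX2*, *PRDX3*, *SOD2* and *CAT*, and in 41.8% of all 35116 windows of this length. The 250 bases before the start are given 5′ to 3′ on the strand of the gene, from build GRCh38.p14, with any match in capitals. They lie at chr9:110256508-110256757 on the minus strand for *TXN*, at chr11:34438684-34438933 on the plus strand for *CAT* and at chr10:119178813-119179062 on the minus strand for *PRDX3*.
TXN: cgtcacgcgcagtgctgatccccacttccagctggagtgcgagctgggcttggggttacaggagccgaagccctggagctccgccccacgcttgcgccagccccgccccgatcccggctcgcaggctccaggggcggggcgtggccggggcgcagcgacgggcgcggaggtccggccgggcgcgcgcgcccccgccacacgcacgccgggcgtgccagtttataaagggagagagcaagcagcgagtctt
CAT: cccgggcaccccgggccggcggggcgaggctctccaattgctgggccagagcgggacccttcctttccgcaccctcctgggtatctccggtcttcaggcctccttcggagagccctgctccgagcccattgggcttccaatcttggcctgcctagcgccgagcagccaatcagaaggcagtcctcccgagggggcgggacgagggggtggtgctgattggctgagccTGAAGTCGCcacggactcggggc
PRDX3: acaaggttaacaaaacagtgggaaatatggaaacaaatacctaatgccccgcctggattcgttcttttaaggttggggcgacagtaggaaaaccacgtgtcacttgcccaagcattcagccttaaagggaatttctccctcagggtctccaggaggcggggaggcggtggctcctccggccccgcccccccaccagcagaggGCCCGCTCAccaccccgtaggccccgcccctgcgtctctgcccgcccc
The match of *CAT* begins 23 bases before the start and that of *PRDX3*, on the opposite strand, 48 bases before it. A window of *SOD2*, not shown, also has a match before its start, 187 bases from it. The window of *TXN* holds no match. A match describes letters only, and binding was not analysed here.

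The other genes of the thioredoxin and peroxide pathway were taken from a list of 40, of which 39 had a probe and 36 were well above background on at least 1 array. *SRXN1*, the sulfiredoxin that repairs overoxidized peroxiredoxins, *SOD3* and *MSRB3* were not well above background on any array. In Arp5 KO over wild-type cells 0 of the 36 were higher and 1 was lower beyond 1.5-fold, where 4.6% of all genes were higher and 4.2% lower. The lower gene was *RRM2*, the small subunit of ribonucleotide reductase, with 17034 units in the wild type, 10767 with Arp5 KO, 12513 with Arp8 KO, and 18456 on the array labelled Arp8 overexpression. Its log2 ratio in Arp5 KO cells was -0.64, and its other probe gave -0.37, which is not beyond 1.5-fold. In Arp8 KO over the array labelled Arp8 overexpression these probes gave -0.55 and -0.77, so there the other probe is beyond 1.5-fold and the brightest is not.

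In Arp8 KO over wild-type cells 2 of the 36 were higher and 1 was lower beyond 1.5-fold, and on the array labelled Arp8 overexpression over wild-type cells 0 were. Over all genes the shares were 5.87% higher and 5.75% lower for the former and 6% and 5.73% for the latter, so the counts for Arp8 KO lie near those of all genes. The higher genes were *SESN1* and *SESN2*, which encode sestrins, stress-induced proteins that restrain the growth kinase complex mTORC1. *SESN1* had 893 units in the wild type, 793 with Arp5 KO, 2394 with Arp8 KO, and 1094 on the array labelled Arp8 overexpression. Arp8 KO cells alone were high, with a log2 ratio to wild-type cells of 1.40, and the other *SESN1* probe gave 1.27. In contrast to *TXN*, the array labelled Arp8 overexpression lay near wild-type cells for *SESN1*, at 0.27, and Arp8 KO cells were higher than it by 1.14. *SESN2* had 964, 1224, 1741 and 1249 units in the same order and a log2 ratio of 0.84 in Arp8 KO cells. Lower was *TXNRD2*, the mitochondrial thioredoxin reductase, with 319, 248, 209 and 369 units and a log2 ratio of -0.63. In Arp8 KO over the array labelled Arp8 overexpression 1 of the 36 was higher beyond 1.5-fold, *SESN1*, and 1 was lower, *TXNRD2* at -0.82, where 3.36% of all genes were higher and 4.01% lower.

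A reductase and a binding protein of thioredoxin, its mitochondrial counterpart and a further relative are given for their role, outside the 1.5-fold rule and after their values had been seen. *TXNRD1*, the cytosolic thioredoxin reductase, had 1111 units in the wild type, 967 with Arp5 KO, 959 with Arp8 KO, and 976 on the array labelled Arp8 overexpression. *TXN2*, the mitochondrial thioredoxin, had 9164, 9093, 10726 and 10585 units. *TXNIP*, which binds and restrains thioredoxin, had 15169, 13986, 15757 and 14693 units. Their log2 ratios in Arp8 KO over wild-type cells were -0.23, 0.21 and 0.04. *NXN*, which encodes nucleoredoxin of the thioredoxin family, had 3518, 3495, 2546 and 2530 units and followed the arrays as *TXN* did to a smaller extent, with log2 ratios to wild-type cells of 0.01, -0.48 and -0.50. For *PRDX1* to *PRDX6*, the log2 ratios in that comparison were -0.02, -0.41, 0.09, -0.18, -0.16 and 0.04.

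Copies of these genes could add to a probe's signal. The gene table names 7 pseudogenes of *TXN*, 4 of *PRDX2*, 4 of *PRDX3* and 3 of *SOD1*, and none of *PRDX6* or *CAT*. Whether the probes also bind their transcripts was not examined. With 1 array for each genotype, differences between genotypes cannot be told apart from differences between cultures, clones or labelling reactions. The wild-type array enters 3 of the 4 comparisons, so a deviation of that array would appear in each of them. Signals are mRNA levels without added stress, and protein, enzyme activity and the redox state of the peroxiredoxins or of thioredoxin were not analysed here.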

How the data were processed

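Total RNA of Nalm-6 cells had been labelled with Cy3 and hybridized to Agilent arrays, all 4 on 1 slide scanned on 1 day. The authors deposited the output of Agilent Feature Extraction 10.5.1.1, in which the processed signal is a linear intensity after background subtraction, and other columns with error and quality marks. A deposited table of intensity values equals that signal times 1 factor per array (0.847, 0.838, 0.825 and 0.807 for wild-type, Arp5 KO, Arp8 KO and the array labelled Arp8 overexpression; column medians 127.45, 127.9, 122.5 and 119.1); the origin of the factor is not given in the sources used here. Between 30394 and 31420 of 43376 spots per array were well above background, and the number of arrays limits the precision. Log2 signals were scaled to the 75th percentile of each array, outlier spots were dropped and spots of a probe averaged. A dim side was raised to the lowest signal well above background on its array. Accessions in the gene table of GRCh38.p14 named 26222 of 41000 probes; the files use another build, so the table served for names and gene order only, while promoter sequences carry their own GRCh38.p14 positions. Beside the 10 genes, the rule named *ACTR5*, *ACTR8*, *INO80*, markers, listed pathway genes unseen or beyond 1.5-fold in a comparison, and the 5 nearest in profile to the gene of widest range; *TXNRD1*, *TXN2*, *TXNIP*, *NXN* and the genes in and beside the run on chromosome 9 were named after their values had been seen. Members and lists were chosen with earlier results of these data known. Work was done in Python 3.11.15 with numpy 2.4.6, pandas 2.3.3 and matplotlib 3.10.9, and normexp in limma 3.58.1 under R 4.3.3. The script that makes the calls was tested on simulated data. Alternatives were other scalings, the deposited table, normexp, other filters, probe rules and a 1.5-fold threshold.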

Additional observations from a re-analysis of the deposited data

Results flagged for a closer look

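*TXN* and *SESN1* had log2 ratios of opposite sign in the KO cells. For *TXN* it was 0.17 for Arp5 KO and -1.06 for Arp8 KO over wild-type cells, so that Arp8 KO cells lay lower by a log2 difference of -1.22. For *SESN1* it was -0.15 for Arp5 KO and 1.40 for Arp8 KO, a log2 difference of 1.55. The ratios for Arp5 KO on these probes lie within the software error of 0.20. For Arp5 KO the other probes gave 0.05 for *TXN*, within the error, and -0.28 for *SESN1*, beyond it. Each genotype has 1 array, and neither difference was tested.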

How the results depend on the processing

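No paired analysis was possible because there was 1 array of each genotype. The number of the 10 genes beyond 2-fold stayed at 0, 1, 1 and 0 in the 4 comparisons under every alternative tried, also at 1.5-fold, and the medians of the 10 genes and the ratios of each gene moved by less than the software error. Taking off the shift between scans was not among these alternatives. At its median size it would bring the brightest *TXN* probe just within 2-fold in both comparisons. Ratios close to 0 changed sign in some alternatives, for *CAT*, *PRDX6* and *SOD2* in Arp8 KO over wild-type cells, *PRDX1* in Arp5 KO over wild-type cells and *PRDX4* in Arp8 KO over the array labelled Arp8 overexpression. For the 20 neighbours of *TXN*, all settings were chosen after seeing the data. Their median in Arp8 KO over wild-type cells lay between -1.001 with 5 genes on each side and -0.82 under normexp, and that on the array labelled Arp8 overexpression between -0.91 with 5 and -0.70 with 20 genes on each side. Normexp was run on the median signal. The 10 genes are bright, so signal over background limits them little, and the missing replicates set the precision.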

Other observations

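In the wider run of chromosome 9 that holds *TXN*, *FGD3* and *ANKS6*, named here after their values were seen, were lower by far more than their neighbours. The brightest *FGD3* probe had 1887 units in wild-type cells and 1621 in Arp5 KO cells, against 14.5 with Arp8 KO and 37.2 on the array labelled Arp8 overexpression. As for *ANKS6*, its brightest probe had 1849 and 1334 units in wild-type and Arp5 KO cells and was not well above background on both Arp8 arrays, so that it was at least 198-fold lower in Arp8 KO than in wild-type cells. The other probes of these genes are dimmer and gave smaller folds. That of *FGD3*, with 175 units in wild-type cells, was 17.2-fold lower in Arp8 KO cells, where it was not well above background. That of *ANKS6*, with 47.9 units in wild-type cells, was at least 5.13-fold lower there. Against the wider run, *CTSV*, *ABCA1* and *PALM2AKAP2* had log2 ratios of 0.52, 0.33 and 0.08 in Arp8 KO over wild-type cells. These were its 3 genes above 0 in that comparison. *MKRN10P* and *CCDC180* lay near 0 there, at -0.18 and -0.03. For the array labelled Arp8 overexpression over wild-type cells 82 of the 8642 windows of 20 genes had a median below -0.5, of which 51 were on chromosome 9 and the others on chromosome 6. In Arp8 KO over the array labelled Arp8 overexpression 14 windows had a median above 0.5 and 0 had one below -0.5. These differences were not tested.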
